A study of Bos taurus with 8 samples.

Results

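Alcohol and aldehyde dehydrogenases were examined here in the liver of fetal calves whose dams were fed at a low or a high level during gestation. The 10 genes are ADH4, ADH5, ADH6, ALDH1A1, ALDH1L1, ALDH2, ALDH3A2, ALDH6A1, ALDH7A1 and ALDH8A1. They are a part of these enzyme families, chosen with earlier results of these data known. Their probes were found through the RefSeq accession that the array files give for each spot. In this way 24 probes were found for the 10 genes. Of the 43637 probes kept after those with outlier spots were left out, 26740 could be matched to 12603 genes in all. Of the 24 probes, 1 probe of ADH4 was left out of the comparison because its spot carried an outlier flag on 2 arrays, and it is described apart. The other 23 probes were well above background on all 8 arrays, so the filter on dim probes removed none.

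Liver RNA came from Japanese Black fetuses at 8.5 months post-conception, removed at day 260 ± 8.3 of gestation. The dams of the low-nutrition (LN) fetuses L5, L6, L8 and L9 were given 60% of their nutritional requirement, and the dams of the high-nutrition (HN) fetuses L1, L2, L3 and L10 were given 120%. By the study's methods, the dams were inseminated with male-sorted semen of a single sire, and the fetuses put on arrays were the lightest of LN and the heaviest of HN, so diet goes together with body size in this comparison. No group fed exactly to requirement was among the arrays. The sample titles assign 1 fetus to each array, although the design text mentions pooled RNA, and the arrays were treated as 8 fetuses. Each group had a slide and a scan of its own, and diet therefore cannot be told apart from slide or scan.

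Both families oxidise small reactive molecules. Alcohol dehydrogenases are cytosolic zinc enzymes that turn alcohols into aldehydes with NAD, and aldehyde dehydrogenases then turn aldehydes into carboxylic acids, with a cysteine in the active site. Liver is the main site of ethanol and acetaldehyde oxidation, and the same families handle retinol, formaldehyde, fatty aldehydes and the semialdehydes that arise when amino acids are broken down.

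The unit throughout is log2 of the quantile-normalized spot intensity of 1 probe, so a difference of 1 is a doubling, and differences are LN minus HN. Signals of different probes were not set against each other, since a probe's brightness depends on its sequence. The sums over cell markers do add signals of different probes, and the brightest probes weigh most in them. LN and HN were compared with limma across all 33439 detected probes (2-sided, Benjamini-Hochberg adjustment), and single differences also with an exact permutation test over the 8 fetuses (2-sided), for which the smallest possible p is 0.0286. Standard errors of a difference (SE) and confidence intervals are those of limma. Where a gene had several probes, the brightest stands for the gene and the other probes are given beside it. Lower signal in whole liver can come from fewer cells of a type or from less RNA per cell, which these arrays cannot tell apart.

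Among the 10 genes, ADH4 and ALDH8A1 had the largest differences relative to their error, and both were lower in LN. ADH4 was 2.62-fold higher in HN than in LN, and ALDH8A1 was 1.26-fold higher in HN by its brightest probe and 1.74-fold by the other. ADH5, the neighbour of ADH4 in the genome, had nearly equal means. By the brightest probe, 9 of the 10 genes had a lower mean in LN, against 48.4% of all 10860 genes with a detected probe. Of the 23 probes, 22 had a lower mean in LN, against 49.7% of all detected probes, and probes of 1 gene are not independent. The median difference over the 10 genes was -0.10, against 0.0075 over all genes.

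By limma, 0 of 10 genes reached an adjusted p of 0.05 (the lowest was 0.760), as did 0% of all genes, and 2 of 10 had an unadjusted p of at most 0.05, against 6.05% of all genes. Of the 23 probes, 3 had an unadjusted p of at most 0.05, against 6.32% of all detected probes. The LN and HN fetuses did not overlap for 1 of 10 genes, against 4.14% of all genes. The 10 genes as a set were not tested against other genes.

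**Figure D1:**
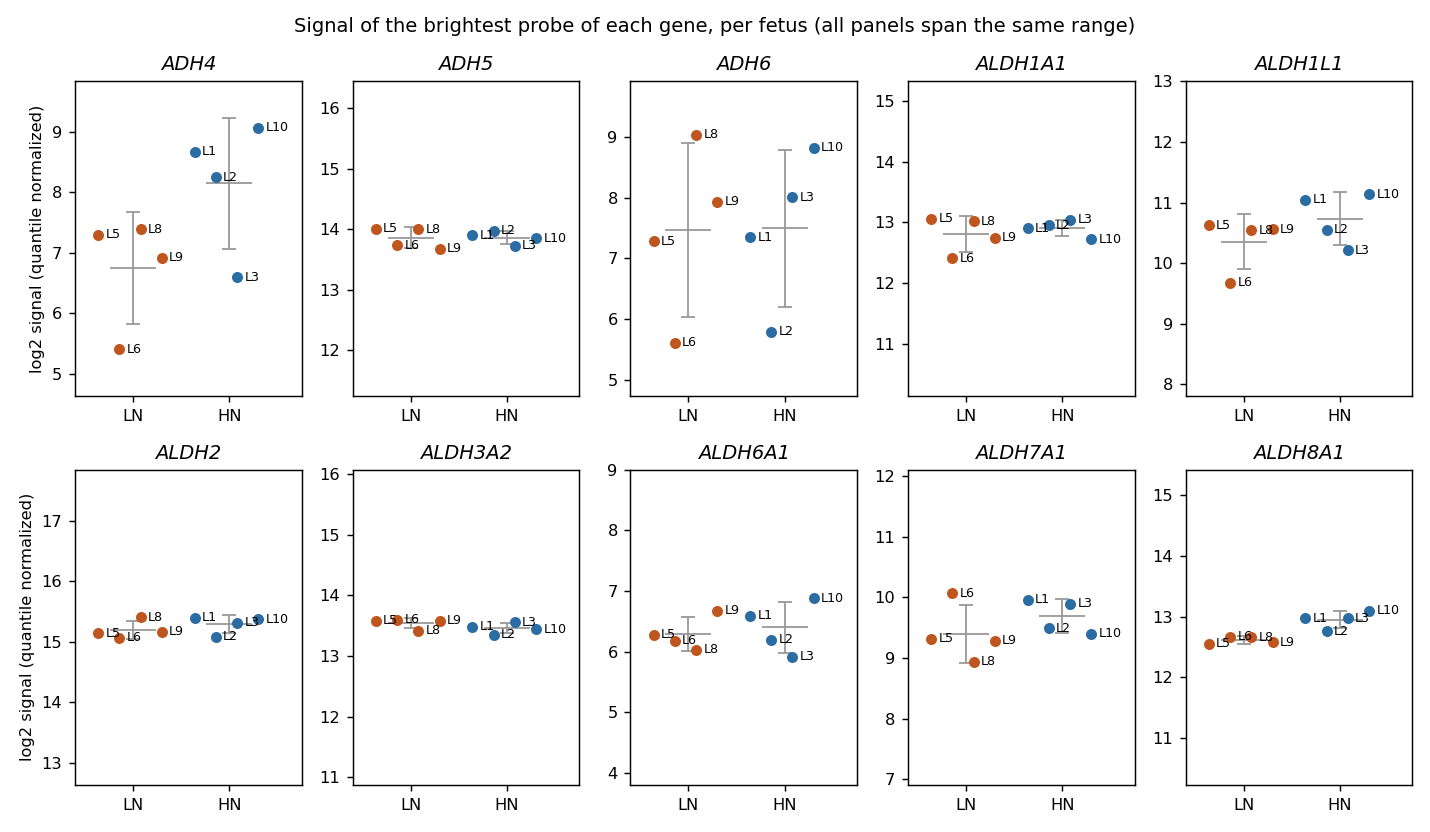
Log2 signal of the brightest probe of each of the 10 genes in every fetus (points, named), with LN on the left and HN on the right of each panel, and the mean with its SD (n = 4 fetuses a group) in grey. All panels cover the same span of the log2 axis, so that the wide spread of ADH4 and ADH6 can be compared with the narrow spread of ADH5, ALDH2 and ALDH3A2, and the 4 LN fetuses of ALDH8A1 lie below the 4 HN fetuses.

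ADH4 encodes the class II alcohol dehydrogenase, a liver enzyme that acts on ethanol, longer alcohols and retinol. Its log2 signal (NM_001102059, the 1 probe used of 2) was 7.30, 5.41, 7.39 and 6.92 in LN fetuses L5, L6, L8 and L9, and 8.66, 8.25, 6.60 and 9.06 in HN fetuses L1, L2, L3 and L10. The groups overlapped through HN fetus L3, which lay below 3 of the 4 LN fetuses, and LN fetus L6 was the lowest of all. The means were 6.75 ± 0.92 in LN and 8.14 ± 1.08 in HN (± SD, n = 4 fetuses each), and the difference was -1.39 (SE 0.59, 95% confidence interval -2.74 to -0.041, limma adjusted p = 0.785, exact permutation p = 0.114). Among the 5258 genes with a lower mean in LN, ADH4 ranked 24 by the size of the difference. Its spread was also wide, with a within-group SD of 1.00 that exceeded that of 98.1% of genes. When fetuses were left out singly, the value lay between -1.91 (without HN fetus L3) and -0.94 (without LN fetus L6), and it was -0.90 with normexp background correction. Without L3 the groups no longer overlapped. The unadjusted limma p was at most 0.05 under 10 of 17 alternative settings and ran from 0.00407 (without L3) to 0.120 (without HN fetus L10), and the adjusted p ran from 0.564 to 1.00. In 2 of the 10, the authors' table and the setting with outlier spots kept, the gene was read by its other probe.

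The ADH4 probe that was left out, the brighter of the pair, carried its flags on arrays L8 and L10. With such spots kept, an alternative chosen after seeing the data, it read 10.84, 9.50, 11.17 and 10.59 in LN fetuses L5, L6, L8 and L9, and 12.27, 11.90, 10.81 and 12.64 in HN fetuses L1, L2, L3 and L10. L6 was again the lowest, and L3 again lay among the LN fetuses. The difference was -1.38 (SE 0.45, 95% confidence interval -2.41 to -0.35, limma adjusted p = 0.759, exact permutation p = 0.0857), and it was -1.35 over the 6 arrays without a flag, with no test. Both probes read the same 8 RNA samples and are not independent.

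ADH5 encodes the class III enzyme, which oxidises formaldehyde bound to glutathione and reduces S-nitrosoglutathione. Its signal (NM_001034249) was 14.01, 13.74, 14.00 and 13.68 in the LN fetuses, in the order above, and 13.90, 13.97, 13.72 and 13.85 in the HN fetuses. The values interleaved, and the difference was -0.0038 (SE 0.13, 95% confidence interval -0.29 to 0.28, limma adjusted p = 0.997, exact permutation p = 0.943). Its other probe gave -0.02 (95% confidence interval -0.34 to 0.30). The interval of ADH4 overlaps both of these intervals. Whether ADH4 and ADH5 differed from each other in their response was not tested.

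ADH6 encodes a further alcohol dehydrogenase of liver, whose substrates are poorly known. By its brighter probe (NM_001046057) the signal was 7.29, 5.61, 9.04 and 7.94 in the LN fetuses and 7.35, 5.79, 8.01 and 8.83 in the HN fetuses. Each group held both low and high fetuses, with L6 and L2 low and L8 and L10 high. The within-group SD of 1.36 exceeded that of 99.3% of genes, and the difference of -0.025 had a 95% confidence interval from -1.85 to 1.80, so a change of the size seen for ADH4 could not have been told from 0. The other probe read 6.54, 6.50, 7.84 and 7.50 in the LN fetuses and 7.67, 6.16, 6.97 and 9.17 in the HN fetuses. Its difference was -0.40 (SE 0.61, limma adjusted p = 0.931, exact permutation p = 0.657). Without LN fetus L6 the difference of the brighter probe was 0.59, and without HN fetus L2 it was -0.60.

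In the reference gene table, 8 genes and pseudogenes follow each other from ADH7 to ADH5, in the order ADH7, ADH1C, LOC781689, LOC523510, ADH6, LOC616936, ADH4 and ADH5. Of these, ADH1C, ADH6, ADH4 and ADH5 had a detected probe, and the 1 probe of LOC523510, which the table also lists under the name ADH6, was not detected. ADH1C, a class I enzyme and the classical ethanol oxidiser, read 8.95, 9.67, 10.23 and 10.73 in the LN fetuses and 10.45, 8.81, 9.97 and 12.30 in the HN fetuses. This gene was named for its place beside the others. HN fetus L10 stood highest, and the difference was -0.49 (SE 0.68, limma adjusted p = 0.925, exact permutation p = 0.600). The alcohol dehydrogenases are similar in sequence, and how far a probe of one binds RNA of another was not tested.

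**Figure D2:**
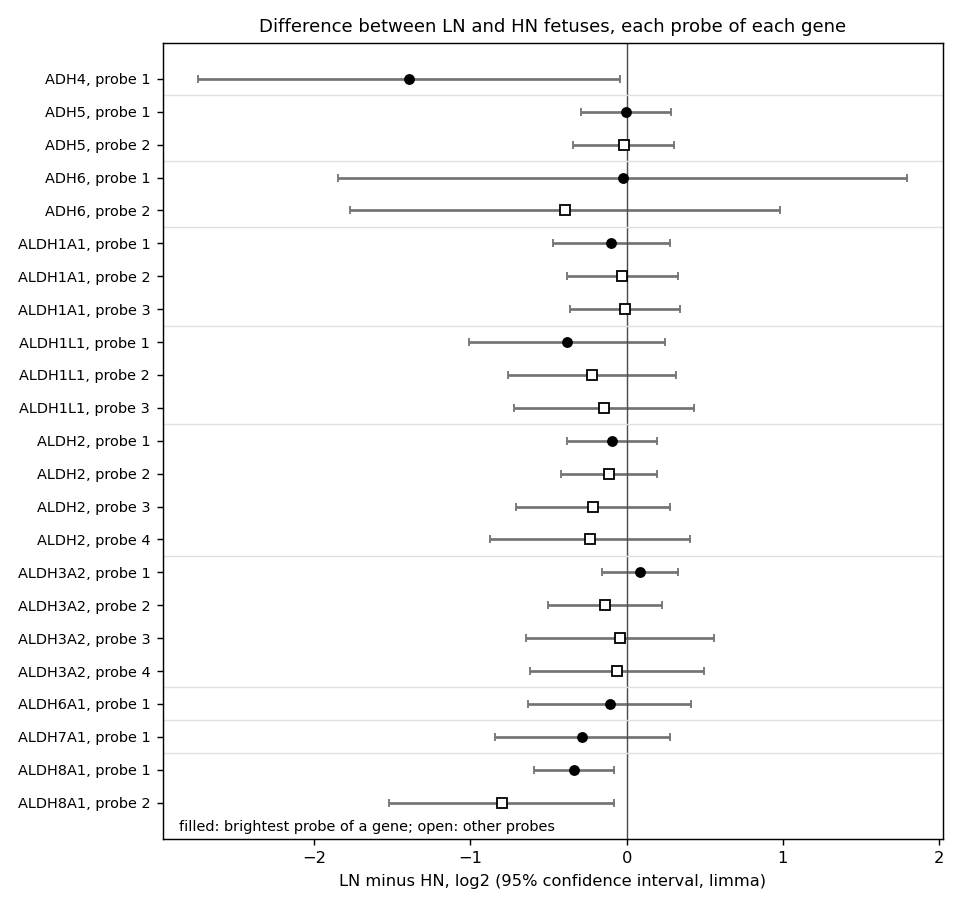
Difference LN minus HN on the log2 scale for each of the 23 probes (points) with its 95% confidence interval from limma (bars), the probes of each gene numbered from the brightest, with filled circles for the brightest probe and open squares for the others. The intervals of 3 probes, those of ADH4 and both of ALDH8A1, lie wholly below 0, and no probe has an interval above 0.

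ALDH8A1 encodes an aldehyde dehydrogenase that acts on 2-aminomuconic semialdehyde in the kynurenine route of tryptophan breakdown, and that was first described as acting on retinal. Its brighter probe (NM_001075626) read 12.55, 12.67, 12.66 and 12.58 in LN fetuses L5, L6, L8 and L9, and 12.97, 12.76, 12.98 and 13.10 in HN fetuses L1, L2, L3 and L10. Every LN fetus lay below every HN fetus, and the LN fetuses lay closer together than the HN fetuses. The means were 12.61 ± 0.059 in LN and 12.95 ± 0.14 in HN (± SD, n = 4 fetuses each), a difference of -0.34 (SE 0.11, 95% confidence interval -0.59 to -0.078, limma adjusted p = 0.760, exact permutation p = 0.0286). The dimmer probe read 6.95, 8.00, 6.88 and 7.67 in the LN fetuses and 7.75, 7.77, 8.55 and 8.64 in the HN fetuses. Here L6 in LN lay above L1 and L2 in HN, so the groups overlapped, and the difference was -0.80 (SE 0.32, 95% confidence interval -1.52 to -0.08, limma adjusted p = 0.783, exact permutation p = 0.114). When fetuses were left out singly, the value of the brighter probe lay between -0.40 and -0.28. Averaging both probes gave -0.57 with overlap. Its unadjusted limma p was at most 0.05 under 16 of 17 alternative settings and 0.0551 with array position as a block, and its adjusted p ran from 0.550 to 1.00 over the 17.

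Retinal, folate and acetaldehyde are the substrates or partners of the next 3 enzymes. ALDH1A1, the cytosolic enzyme that makes retinoic acid from retinal, read 13.06, 12.41, 13.02 and 12.75 in the LN fetuses and 12.90, 12.96, 13.04 and 12.72 in the HN fetuses (NM_174239). Only LN fetus L6 stood low. The difference was -0.10 (SE 0.17, 95% confidence interval -0.47 to 0.28, limma adjusted p = 0.938, exact permutation p = 0.686), and the other 2 probes gave -0.027 and -0.0087. Without L6 the brightest probe differed by 0.035.

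ALDH1L1, which converts 10-formyltetrahydrofolate to tetrahydrofolate and carbon dioxide, read 10.63, 9.67, 10.55 and 10.56 in the LN fetuses and 11.04, 10.56, 10.21 and 11.14 in the HN fetuses (NM_001103087). L6 again lay far below the other LN fetuses, while L1 and L10 were the highest. The difference was -0.38 (SE 0.28, 95% confidence interval -1.01 to 0.24, limma adjusted p = 0.836, exact permutation p = 0.257) and was -0.16 without L6. The other 2 probes gave -0.22 and -0.14, the same direction with intervals that hold 0.

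ALDH2, the mitochondrial enzyme that removes acetaldehyde, read 15.14, 15.07, 15.41 and 15.17 in the LN fetuses and 15.40, 15.08, 15.32 and 15.37 in the HN fetuses (NM_001075367). The groups overlapped over most of their range. The difference was -0.094 (SE 0.13, 95% confidence interval -0.38 to 0.19, limma adjusted p = 0.921, exact permutation p = 0.429), and the other 3 probes gave -0.11, -0.22 and -0.24. The difference was -0.048 without LN fetus L6, -0.16 without HN fetus L2 and -0.17 with the mean over the probes. The 2 dimmer probes spread more widely, from 9.03 in L6 to 10.24 in L8 for the dimmest.

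ALDH3A2, the fatty aldehyde dehydrogenase of the endoplasmic reticulum, was the 1 gene of the 10 with a higher mean in LN. Its brightest probe read 13.58, 13.59, 13.42 and 13.58 in the LN fetuses and 13.48, 13.35, 13.55 and 13.44 in the HN fetuses (NM_001101984). The 8 fetuses lay close together and the groups overlapped, and the difference was 0.085 (SE 0.11, 95% confidence interval -0.16 to 0.33, limma adjusted p = 0.914, exact permutation p = 0.229). The other 3 probes pointed the other way, at -0.14, -0.043 and -0.061, and the mean of all 4 probes differed by -0.039, so this gene has no settled direction. It was the only one of the 7 genes with several probes in the comparison whose probes disagreed in sign.

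Of the enzymes of amino acid breakdown, ALDH6A1 acts on methylmalonate semialdehyde from valine and thymine and ALDH7A1 on the semialdehyde of aminoadipate from lysine. ALDH6A1 (NM_175811, 1 probe) read 6.28, 6.18, 6.03 and 6.68 in the LN fetuses and 6.60, 6.20, 5.92 and 6.88 in the HN fetuses. Its lowest and highest fetuses, L3 and L10, were both in HN. The difference was -0.11 (SE 0.23, 95% confidence interval -0.63 to 0.41, limma adjusted p = 0.948, exact permutation p = 0.714) and turned to 0.053 without L10.

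ALDH7A1 (NM_001045969, 1 probe) read 9.32, 10.07, 8.94 and 9.28 in the LN fetuses and 9.96, 9.49, 9.89 and 9.40 in the HN fetuses. L6 was the highest of all 8 here, while the other 3 LN fetuses lay below every HN fetus. The difference was -0.28 (SE 0.25, 95% confidence interval -0.85 to 0.28, limma adjusted p = 0.865, exact permutation p = 0.343), and it was -0.51 without L6 (limma adjusted p = 0.759) and -0.13 without LN fetus L8 (limma adjusted p = 0.933).

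Single fetuses stood apart in several of the 10 genes. LN fetus L6 had the lowest signal in 5 genes (ADH4, ADH6, ALDH1A1, ALDH1L1 and ALDH2) and the highest in 2 (ALDH3A2 and ALDH7A1). HN fetus L10 had the highest signal in 4 genes (ADH4, ALDH1L1, ALDH6A1 and ALDH8A1). HN fetus L1 lay above the gene's mean in 8 of 10 genes, and L2, also in HN, lay below it in 6. Array L6 was also the dimmest before normalization, with a median log2 intensity of 5.97 against 6.09 to 6.71 on the others, and had 32635 spots well above background, against 33218 to 34369. The part of array brightness in the values of L6 was not tested. Without L6, 6 of the 10 genes had a lower mean in LN in place of 9, and the median difference was -0.059.

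**Figure D3:**
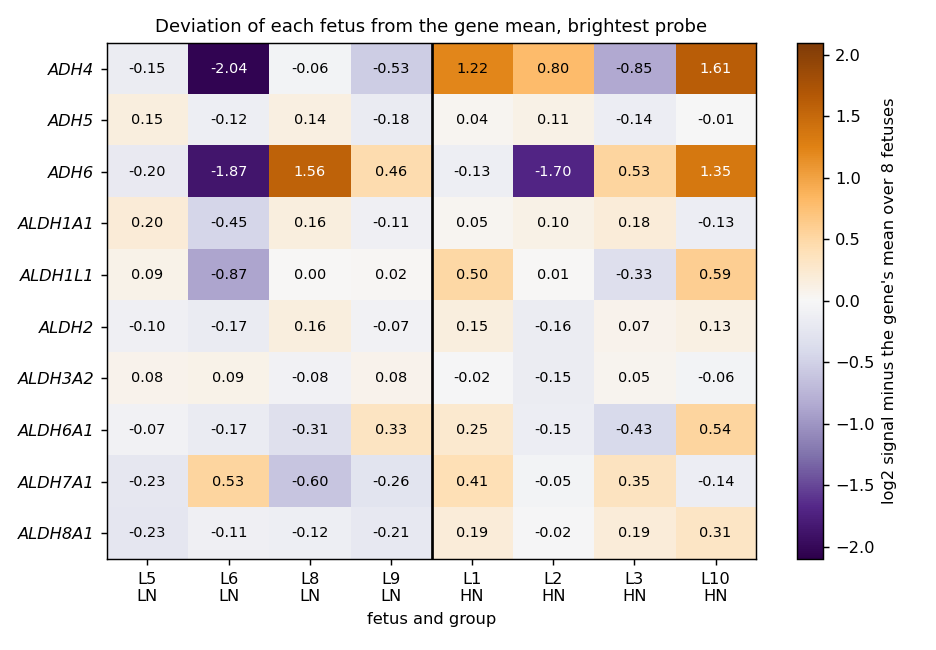
Log2 signal of each fetus (columns, LN left of the line and HN right of it) minus the mean of the gene over all 8 fetuses (rows, brightest probe), written in each cell and coloured from low (purple) to high (orange). In the row of ALDH8A1 every LN fetus lies below every HN fetus, while ADH4 and ADH6 reach from -2.04 to 1.61 and from -1.87 to 1.56.

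Fetal liver also makes blood cells, and most markers of these had higher means in LN. Of 9 detected neutrophil and myeloid precursor markers, 8 had a higher mean in LN, 5 of them with an unadjusted p of at most 0.05 by limma (against 3.3% of all genes, higher in LN), and the log2 of their summed signal was 12.98 to 14.63 in LN and 11.73 to 13.06 in HN (exact permutation p = 0.0571). MPO, ELANE and CATHL4 of this list did not overlap between groups, at 1.32, 0.91 and 1.78 higher in LN, each with a limma adjusted p of 0.760. These are 3 of 9, against 2.59% of all genes without overlap and higher in LN. The study had named CATHL4, and HBM of the erythroid list, among the most upregulated genes on these arrays. Their direction was therefore known when the lists were made, and CATHL4 enters each of these counts. All 6 detected erythroid markers had a higher mean in LN, with summed signals of 13.83 to 17.09 in LN and 12.94 to 14.98 in HN, which overlapped (exact permutation p = 0.371). SLC4A1, KLF1 and EPB42 of the erythroid list were not detected. The 9 detected hepatocyte markers, ALB among them, had a summed signal of 20.84 to 20.96 in LN and 20.80 to 20.90 in HN, and the tissue was liver by these markers. Quantile normalization gives the brightest probes nearly the same values on every array, so this sum cannot show whether hepatocyte content differed. The largest differences of the remaining lists were 1.83 for HBM (erythroid), 0.34 for AFP (hepatocyte), -0.27 for CD163 (Kupffer cell), 0.29 for LYVE1 (endothelial), -0.46 for COL1A2 (stellate cell) and 0.67 for KRT7 (cholangiocyte). All 6 overlapped between groups, and of them KRT7 had an unadjusted p of at most 0.05 by limma. That is 1 of 4 detected cholangiocyte markers, against 3.3% of all genes, higher in LN. Single fetuses moved most of these values: with each fetus left out, HBM ran from 0.68 (without L5) to 2.37, AFP from 0.16 (without L3) to 0.64 (without L8), CD163 from -0.45 (without L2) to -0.16 (without L3), LYVE1 from 0.15 (without L2) to 0.41, and COL1A2 from -0.63 to -0.22 (without L2). The medians of the Kupffer cell, endothelial, stellate cell and cholangiocyte lists were -0.090, 0.050, -0.16 and -0.018. In L6, which was low in 5 of the 10 genes, the summed neutrophil signal was 13.45. The part of blood cell content in the differences of ADH4 and ALDH8A1 was not tested.

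Other members of the same families were also described. Of 15 further alcohol and aldehyde dehydrogenases, 10 had a detected probe, and 7 of these had a lower mean in LN. Their median difference was -0.10, in a range from -0.49 (ADH1C) to 0.56 (ALDH1L2). Of the 10, 0 had an unadjusted p of at most 0.05 by limma, against 6.05% of all genes. ALDH1L2, the mitochondrial counterpart of ALDH1L1, read 6.67, 6.65, 5.25 and 5.88 in the LN fetuses and 6.03, 4.47, 6.19 and 5.54 in the HN fetuses, with a difference of 0.56 (SE 0.44, limma adjusted p = 0.852, exact permutation p = 0.314). It was 0.19 without HN fetus L2, 0.37 without LN fetus L5 or L6, 0.84 without LN fetus L8 and 0.28 with normexp, and the groups overlapped.

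Around ALDH1L1, the folate enzymes were divided. All 18 listed were detected, 9 lower and 9 higher in LN, with a median difference of 0.0011. Before adjustment, the limma p was 0.05 or less for 1 lower gene, against 2.75% of all genes, and for 3 higher genes, against 3.3%. After adjustment, 0 passed. The groups did not overlap for 1 lower gene, against 1.56% of all genes, and 3 higher genes, against 2.59%.

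FTCD, which passes formyl and formimino groups from histidine breakdown to tetrahydrofolate, read 12.45, 13.34, 13.18 and 13.35 in the LN fetuses and 13.70, 14.33, 13.57 and 14.42 in the HN fetuses. All LN fetuses were below all HN fetuses, at a difference of -0.93 (SE 0.27, limma adjusted p = 0.760, exact permutation p = 0.0286). MTHFD1L, the mitochondrial enzyme that releases formate from 10-formyltetrahydrofolate, read 5.57, 5.24, 5.20 and 4.97 in the LN fetuses and 4.79, 4.72, 4.53 and 4.35 in the HN fetuses. It stood higher in every LN fetus than in any HN fetus, with a difference of 0.65 (SE 0.16, limma adjusted p = 0.760, exact permutation p = 0.0286), which was 0.26 with normexp background correction. ATIC and GART, which use 10-formyltetrahydrofolate in purine synthesis, differed by 0.36 (SE 0.11, limma adjusted p = 0.760, exact permutation p = 0.0286) and 0.28 (SE 0.13, limma adjusted p = 0.785, exact permutation p = 0.0286), without overlap. MTR, the methionine synthase, was the third higher gene by the unadjusted p, at 0.37 (SE 0.13, limma adjusted p = 0.760, exact permutation p = 0.0571), and its groups overlapped. GART and MTR were named after their values were seen, to complete the counts of 3.

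Around ALDH8A1 and ALDH7A1, 9 of 15 enzymes of tryptophan and lysine breakdown had a lower mean in LN, with a median of -0.091. PIPOX, which oxidises pipecolate on the way from lysine, had the largest difference of the list, at -0.81 (SE 0.27, limma adjusted p = 0.760, exact permutation p = 0.0571), and was the 1 gene of 15 with an unadjusted p of at most 0.05 by limma, against 6.05% of all genes. It read 10.55, 9.88, 11.12 and 10.76 in the LN fetuses and 11.49, 11.62, 10.89 and 11.56 in the HN fetuses, and LN fetus L8 lay above HN fetus L3. The other 14 lay between -0.46 and 0.18.

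Around ALDH6A1, 15 of 19 detected enzymes of valine, leucine and isoleucine breakdown had a higher mean in LN, with a median of 0.076 and a range of -0.24 to 0.27. In this list 1 gene, MCCC1 of leucine breakdown, named after its values were seen, had an unadjusted p of at most 0.05 by limma, at 0.26 (SE 0.11, limma adjusted p = 0.785, exact permutation p = 0.0571), which is 1 of 19, against 6.05% of all genes. BCAT1, the cytosolic transaminase at the head of the route, had the largest difference of the list, 0.27 (SE 0.37), and was well above background on only 5 of 8 arrays. It was 0.023 with scaling to the 75th percentile and 0.095 with normexp, and turned to -0.032 without LN fetus L9.

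Of 18 detected genes of retinoid metabolism, 10 had a lower and 8 a higher mean in LN, with a median of -0.023. Of the 18, 0 had an unadjusted p of at most 0.05 by limma, against 6.05% of all genes. BCO1, which cleaves beta-carotene to retinal, had the largest difference of this list at -0.68 (SE 1.00), with 4 of 8 arrays well above background. It was -0.23 without LN fetus L9 and also with normexp, -1.28 without HN fetus L1 and -1.25 without HN fetus L3. Of 13 other enzymes that handle alcohols, aldehydes or formaldehyde, 7 had a lower mean and 0 such a p, against 6.05% of all genes. CYP2E1, the cytochrome P450 of ethanol oxidation, was dim, with signals of 3.85, 2.53, 3.19 and 1.54 in the LN fetuses and 1.33, 3.42, 3.42 and 4.22 in the HN fetuses and 5 of 8 arrays well above background. Its difference of -0.32 (SE 0.66) turned to 0.094 without LN fetus L9 and to 0.053 without HN fetus L10. It was -0.076 with normexp and -0.50 with scaling to the 75th percentile.

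The route from choline to glycine had 5 detected genes, 3 of them lower, with GNMT, which methylates glycine, at -0.58 (SE 0.21, limma adjusted p = 0.760, exact permutation p = 0.0857). GNMT was the 1 gene of 5 with an unadjusted p of at most 0.05 by limma, against 6.05% of all genes. Its groups overlapped, with LN fetus L8 above HN fetus L3. In the fatty aldehyde and phytol route, 4 of 6 detected genes had a higher mean in LN. Here 1 of 6, AGMO, had an unadjusted p of at most 0.05 by limma, against 6.05% of all genes. AGMO, which cleaves ether lipids to fatty aldehydes, the substrates of ALDH3A2, read 10.37, 10.69, 10.75 and 10.30 in the LN fetuses and 10.34, 10.01, 9.55 and 9.71 in the HN fetuses. Its difference was 0.62 (SE 0.20, limma adjusted p = 0.760, exact permutation p = 0.0571), and the groups overlapped by L1 in HN, which lay above L9 in LN. It was 0.36 without LN fetus L8 and 0.38 without LN fetus L6. In these settings the brightest probe of AGMO was picked anew, so both values can reflect a change of probe and not the fetus left out.

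**Figure D4:**
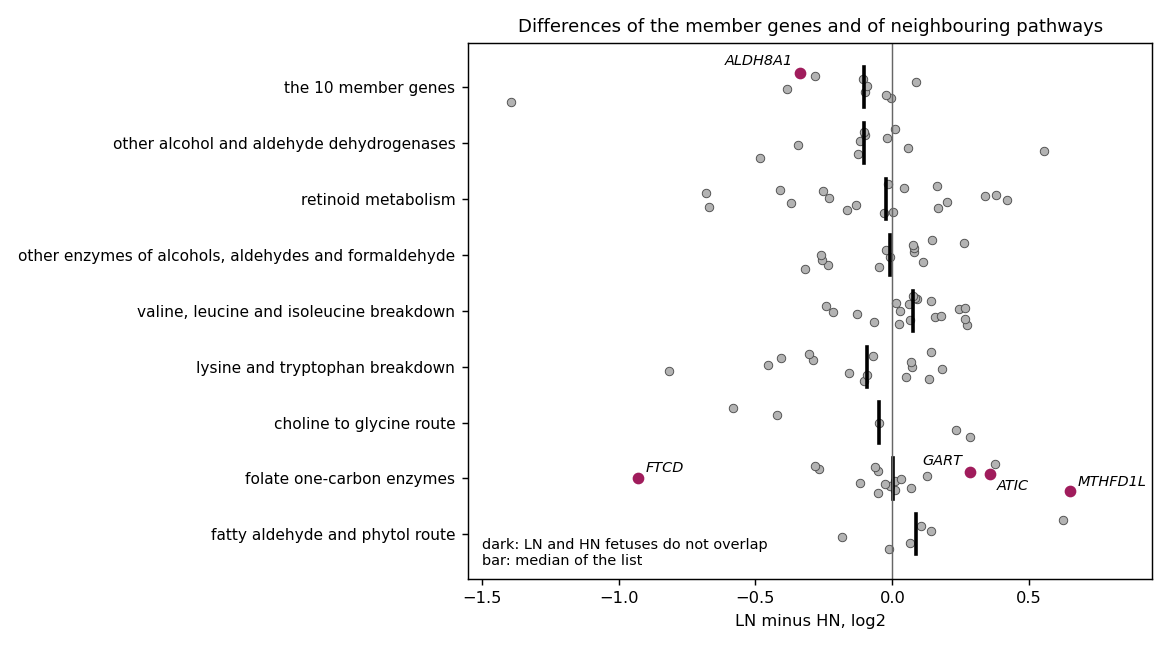
Difference LN minus HN on the log2 scale, by the brightest probe, of the 10 genes (top row) and of the genes of 8 lists from neighbouring pathways (other rows), each point a gene and each bar the median of its list. Dark points are genes whose LN and HN fetuses did not overlap, which are ALDH8A1 among the 10 genes and FTCD, GART, ATIC and MTHFD1L among the folate enzymes.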

How the data were processed

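Fetal liver RNA (4 LN, 4 HN) was measured on 1-colour Agilent bovine arrays. The deposited scanner files hold spot intensity that, per the submitters' processing notes, came from Agilent Feature Extraction 11.0.1.1, already background-corrected. A second deposited table by the authors holds log2 values of 31068 probes, quantile-normalized in GeneSpring GX per the methods. Log2 values quantile-normalized here over those probes alone, with outlier spots kept, matched it to within 0.0423. The values used in the comparison were normalized over more probes and were not matched to it value by value. Here log2 of the processed intensity was quantile-normalized over 43637 probes after 16 probes with outlier spots were left out, 1 of them a probe of ADH4. The 33439 probes that 4 or more arrays measured well above background entered limma 3.58.1, run in R 4.3.3, with Benjamini-Hochberg adjustment over all of them. The number of arrays limits the precision. The limma script was tested on simulated data. Probes were named through RefSeq accessions. The array design and the reference table use different assemblies, so no coordinates are given. No sequences of the genes were used here.

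The 10 genes and the pathway and cell marker lists were chosen with earlier results of these data known. From each list, the genes without overlap between groups (at most the 3 with the largest difference) and the gene with the largest difference were named. ADH1C, GART, MCCC1 and MTR fall outside this rule and were named after their values were seen. The alternatives were the authors' table, 75th percentile scaling, background correction by normexp (offset 50), other filters, trend and robust variance moderation, array position as a block, the mean over a gene's probes, and each fetus left out in turn. Keeping outlier spots was added after seeing the data.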

Additional observations from a re-analysis of the deposited data

Results flagged for a closer look

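In 60 groups of 4 fetuses, single fetuses were checked for a gap to the nearest other fetus that passed Dixon's limit for its share of the group's range, and 4 groups showed one. Chance gives such a gap in about 1 of 20 groups. ALDH1L1 in LN fetus L6 was 9.67, with the nearest LN fetus at 10.55. ALDH3A2 in LN fetus L8 was 13.42, with the nearest at 13.58. PIPOX in HN fetus L3 was 10.89, with the nearest at 11.49, and GART in HN fetus L10 was 9.91, with the nearest at 10.11.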

How the results depend on the processing

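By limma, 0 of the 10 genes passed an adjusted p of 0.05 under any of the 17 alternatives. The number at an unadjusted p of at most 0.05 was 2, and it was 1 with no filter on dim probes (7.32% of all genes), 0 with array position as a block (4.61%), and 1 to 2 with each fetus left out (3.80% to 7.78%). With the block, the unadjusted limma values were 0.0564 for ADH4 and 0.0551 for ALDH8A1. The number without overlap was 1, and it was 0 with the mean over a gene's probes and 1 to 2 with each fetus left out, at 2 without L6 (ALDH7A1 added, 7.98% of all genes), without L8 (ALDH3A2 added, 7.90%) or without L3 (ADH4 added, 9.39%), against 4.14% with all fetuses. The median difference of -0.10 was -0.17 with scaling to the 75th percentile, where 54.4% of all genes had a lower mean in LN, and -0.19 with the mean over probes. With each fetus left out it ran from -0.26 (without L2) to -0.059 (without L6).

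Signs turned for ADH5 (0.0031) and ADH6 (0.0066) with normexp, and for ALDH3A2 (-0.039) with the mean over probes. With each fetus left out, ADH5 ran from -0.054 to 0.055, ADH6 from -0.60 to 0.59, ALDH1A1 from -0.18 to 0.035, ALDH6A1 from -0.27 to 0.053, CYP2E1 from -0.91 to 0.094 and BCAT1 from -0.032 to 0.51. Of the values of the 10 genes under the alternatives, 157 kept their direction and their side of the adjusted threshold, and 13 turned. The causes were not tested. With outlier spots kept, chosen after seeing the data, the counts stood at 0, 2 and 1. No paired analysis was possible because the groups share no replicate numbers, and slide position, used as a block above, pairs arrays and not animals.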
